A study of Mus musculus with 2 samples.

Results

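Kit, Cd34, Flt3, Epor, Il7r and Prom1 encode receptors and surface antigens by which early blood progenitors are recognised. These 6 genes were taken by symbol, matched through their Ensembl identifiers, from a table of 69691 gene rows, of which 21474 were protein-coding genes. They were measured by total RNA-seq in granulocyte-monocyte progenitors (GMP), marrow precursors of neutrophils and monocytes. The cells came from adult male C57BL/6J mice aged 5 to 6 weeks, with no genetic change and no treatment named in the labels. The study has 1 group, GMP, with 2 libraries of 100 pooled cells each, numbered replicate 1 and replicate 2 by the labels. Replicate 1 held 40509954 expected counts (estimated reads per gene) and replicate 2 held 35675702. The labels give separate samples with 1 shared donor entry and do not say whether these were separate animals. They number the libraries as biological replicates 1 and 2, with 1 technical replicate each. An SD here is the spread of these 2 libraries, and how much of it is technical was not measured. With no second group there was no test, and the values describe how the 6 genes ranked and how far the libraries differed.

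Kit and Flt3 encode receptor tyrosine kinases of the same class, bound by stem cell factor and by FLT3 ligand. Signalling through KIT sustains the survival and division of stem and progenitor cells, and FLT3 acts in multipotent, lymphoid and dendritic progenitors. Epor encodes the receptor for erythropoietin, needed by red cell precursors, and Il7r encodes the chain that binds interleukin 7, needed by lymphoid progenitors. Cd34 encodes a sialomucin (a membrane protein with many sugar chains) and Prom1 encodes prominin 1, or CD133, a membrane protein with several membrane spans. In mouse marrow, GMP are conventionally sorted as cells with KIT and CD34 on their surface and without the interleukin 7 receptor. How these cells were gated is not given in the sources used.

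The transcripts that divided the reads of Kit, Cd34 and Prom1 differ by short stretches, and these are shown because the transcript results turn on them. All sequences are on mm10 (GRCm38) and run 5′ to 3′ along the transcript. Kit-201 and Kit-204 both have 21 exons, and exon 9 of Kit-201 is 12 bases longer at its end (chromosome 5, 75639147 to 75639158, plus strand, coding). The capitals mark these 12 bases, which add 4 codons just outside the membrane and set the receptor forms known as GNNK plus (Kit-201) and GNNK minus (Kit-204) apart.
Kit-201: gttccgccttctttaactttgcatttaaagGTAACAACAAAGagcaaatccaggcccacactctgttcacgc
Kit-204: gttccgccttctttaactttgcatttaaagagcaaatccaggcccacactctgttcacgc

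Cd34-201 and Cd34-202 both have 8 exons, and the last exon of Cd34-202 starts 156 bases earlier (chromosome 1, plus strand). Both are printed from 30 bases before that junction to the end of the stop codon. Cd34-201 runs on for 186 bases past the junction (194959936 to 194960121). The capitals in Cd34-202 are the 15 bases it reads before its own stop codon ends (194959780 to 194959794). Cd34-201 therefore has 382 codons and Cd34-202 has 325, which correspond to the full-length protein and to the form with a shortened cytoplasmic tail.
Cd34-201: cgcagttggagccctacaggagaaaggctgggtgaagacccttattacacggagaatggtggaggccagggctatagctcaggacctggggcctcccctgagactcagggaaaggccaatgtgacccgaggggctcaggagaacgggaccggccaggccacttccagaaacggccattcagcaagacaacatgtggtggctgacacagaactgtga
Cd34-202: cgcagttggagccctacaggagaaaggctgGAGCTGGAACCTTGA

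Prom1-203 holds coding exons 24 and 25 (chromosome 5, 44001270 to 44001293 and 44000777 to 44000845, minus strand), which Prom1-207 lacks and which add 93 coding bases. Prom1-207 starts at the base where the second exon of Prom1-203 starts. The last line gives the 20 bases before that start (44094769 to 44094788), with the AG of the splice acceptor of Prom1-203 in capitals. The start of Prom1-207 is thus that of an internal exon of other transcripts, and reads on that exon do not show where transcription began.
Prom1-203 exon 24: TGTTGAGACTGTGCCCATGAAAAA
Prom1-203 exon 25: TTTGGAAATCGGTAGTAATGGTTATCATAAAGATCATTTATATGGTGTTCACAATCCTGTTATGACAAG
Prom1-207 bases before the start: gttctttctctccctcccAG

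Cd34 was the most abundant of the 6 genes, followed by Kit, and both lay far above the rest. Flt3 and Prom1 were low, Epor was close to the limit of detection and Il7r was not detected. The members at 1 TPM or more in both libraries numbered 4 of 6 (TPM, a level per length of transcript, scaled to a fixed total). Among all protein-coding genes 45.6% reached that level in both libraries. The count of 4 held at 0.5 TPM, on FPKM and on CPM (counts scaled to the library total), and at 5 TPM only Kit and Cd34 passed in both libraries. In pools of cells, fewer cells with a transcript and less transcript per cell cannot be told apart.

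**Figure D1:**
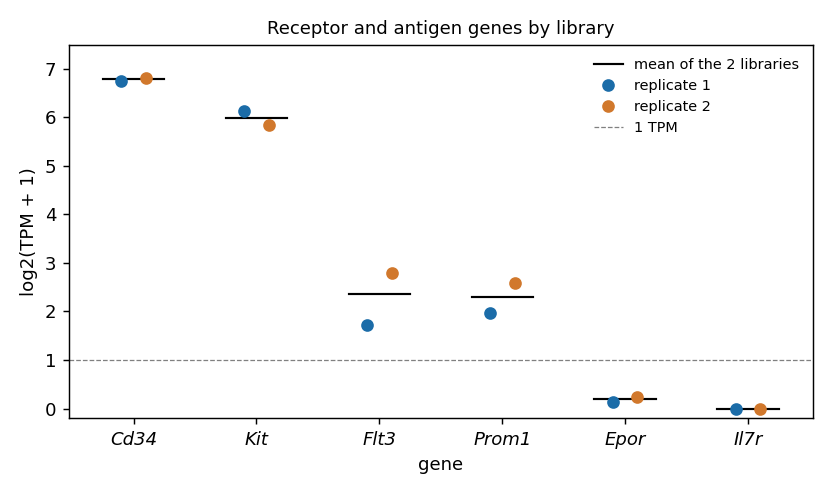
Level of each gene as log2(TPM + 1) on the y axis, with 1 point per library, a bar for the mean of the 2 libraries and a dashed line at 1 TPM. Cd34 and Kit lie highest, Flt3 and Prom1 lie between 2.31 and 5.95 TPM, and Epor and Il7r lie below the line.

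Of the 2 receptor tyrosine kinases, Kit (chromosome 5, 75574916 to 75656722) was at 69.2 TPM in replicate 1 and at 56.2 TPM in replicate 2. Its mean was 62.7 ± 9.23 TPM (SD, n = 2), rank 1077 of 21474 protein-coding genes. Kit had 7596 and 6963 counts, which gave 187.5 and 195.2 CPM. The order of the libraries thus depended on the unit. Replicate 1 was higher in TPM and replicate 2 in CPM, where the ratio of replicate 2 to replicate 1 was 1.04, with a 95% exact binomial interval of 1.01 to 1.08 that covers counting error only. With TMM or DESeq2 factors that ratio was 0.983 and 0.978. Summed over its protein-coding transcripts alone, an alternative chosen after seeing the data, Kit was at 49.5 and 51.8 TPM, with an SD of 1.60. The libraries then lay closer together than on the deposited TPM, where short transcripts described below took part of the level.

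Flt3 (chromosome 5, 147330741 to 147400489) was at 2.31 TPM in replicate 1 and at 5.95 TPM in replicate 2, a mean of 4.13 ± 2.57 TPM (SD, n = 2). Its counts were 287 and 553, or 7.08 and 15.5 CPM. The CPM ratio of replicate 2 to replicate 1 was 2.19, with a 95% exact binomial interval of 1.89 to 2.53 for counting error. Flt3 was the only member more than 2-fold apart between the libraries on the log2(TPM + 1) scale, with a difference of 1.07. Among protein-coding genes of 1 TPM or more on average, 4.44% were more than 2-fold higher in replicate 2, and 8.20% of those at 1 to 10 TPM were. In the other direction, 3.08% were more than 2-fold lower in replicate 2. Scaled with TMM factors from edgeR or with DESeq2 size factors, the Flt3 ratio was 2.07 and 2.06. With 1 added to each scaled CPM the difference was 0.95 on the log2 scale, so there the pseudocount put Flt3 under 2-fold. Kit exceeded Flt3 by 29.97 times in replicate 1 and 9.44 times in replicate 2, both as ratios of TPM.

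The cytokine receptors were scarcely detected. Epor (chromosome 9, 21958897 to 21963506) had 5 counts in replicate 1 and 8 in replicate 2, with 95% exact Poisson intervals of 1.62 to 11.7 and 3.45 to 15.8 counts. Its level was 0.10 and 0.18 TPM, and the libraries did not differ beyond counting error, as the CPM ratio of 1.82 had an interval of 0.524 to 7.06. Il7r (chromosome 15, 9505788 to 9530176) had 0 counts in both libraries. A count of 0 allows up to 3 counts by the usual one-sided 95% limit, which equal 0.0335 and 0.0375 TPM in the 2 libraries. The two-sided exact interval used for Epor would reach 3.69 counts. By comparison, 42.5% of protein-coding genes had 0 counts in both libraries. Il7r was therefore not detectable at this depth, and this does not show that the gene was silent in every cell.

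Of the surface antigens, Cd34 (chromosome 1, 194938819 to 194961279) was at 107.4 TPM in replicate 1 and at 111.3 TPM in replicate 2. Its mean of 109 ± 2.79 TPM (SD, n = 2) put it at rank 571 of the protein-coding genes. The counts of Cd34, 7345 and 6826, were close to those of Kit, at 0.967 and 0.980 times Kit in CPM. Per length of transcript Cd34 lay above Kit by 1.55 times in replicate 1 and 1.98 times in replicate 2. Over protein-coding transcripts alone the ratio of Cd34 to Kit was 2.10 and 2.07, and its spread fell to an SD of 0.0171. Neither Kit nor Cd34 was past 2-fold, as were 1.85% (higher in replicate 2) and 1.28% (lower) of genes at 10 TPM or more. So the reads divided almost evenly between Cd34 and Kit in both libraries, and Cd34, whose transcripts are shorter, had the higher level per length.

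Prom1 (chromosome 5, 43993620 to 44102032) was at 2.90 TPM in replicate 1 and at 4.97 TPM in replicate 2, a mean of 3.94 ± 1.46 TPM (SD, n = 2). It had 291 and 440 counts. The CPM ratio was 1.72, with an interval of 1.48 to 2.00 for counting error, and the difference of 0.61 in log2(TPM + 1) stayed under 2-fold. Like Flt3, Prom1 was higher in replicate 2. Each gene was a single pair of values, and the libraries are the same 2 in both cases.

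In the order of mean TPM, 4 of the 5 neighbouring pairs did not overlap between libraries. These were Cd34 above Kit, Kit above Flt3, Prom1 above Epor, and Epor above Il7r. Flt3 and Prom1 overlapped and changed places, as Prom1 was higher in replicate 1 and Flt3 in replicate 2. In CPM, where length plays no part, Cd34 and Kit also overlapped. The last pair, Epor above Il7r, rests on 5 and 8 counts of Epor.

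The spread between libraries was also estimated over all genes with edgeR, fitted to 13930 Ensembl rows. The model held only a mean, so 1 residual degree of freedom was left. Along the fitted trend the biological coefficient of variation was 0.127 at the abundance of Kit and of Cd34. It was 0.285 at that of Flt3 and 0.302 at that of Prom1. Epor and Il7r had too few counts to enter the fit. Genes as abundant as Flt3 thus typically varied more between these libraries than genes as abundant as Kit.

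Kit was carried mainly by the GNNK minus transcript. Kit-204 was at 41.1 TPM in replicate 1 and at 48.4 TPM in replicate 2, and Kit-201 (GNNK plus) at 8.41 and 3.39 TPM. Of the TPM on the pair, Kit-201 held 17.0% in replicate 1 and 6.55% in replicate 2, a mean of 11.8 ± 7.38% (SD, n = 2). The deposited intervals on TPM, whose level is not stated, overlapped between libraries for each transcript. They ran from 5.38 to 11.2 and from 0.709 to 8.19 TPM for Kit-201, and from 36.2 to 42.3 and from 41.1 to 48.9 TPM for Kit-204. So the libraries did not differ in Kit-201 or in Kit-204 beyond these intervals. Kit-204 also has 39 more bases at its first exon, so reads there bear on the split as well as reads over exon 9. In both libraries the interval of Kit-204 lay wholly above that of Kit-201.

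**Figure D2:**
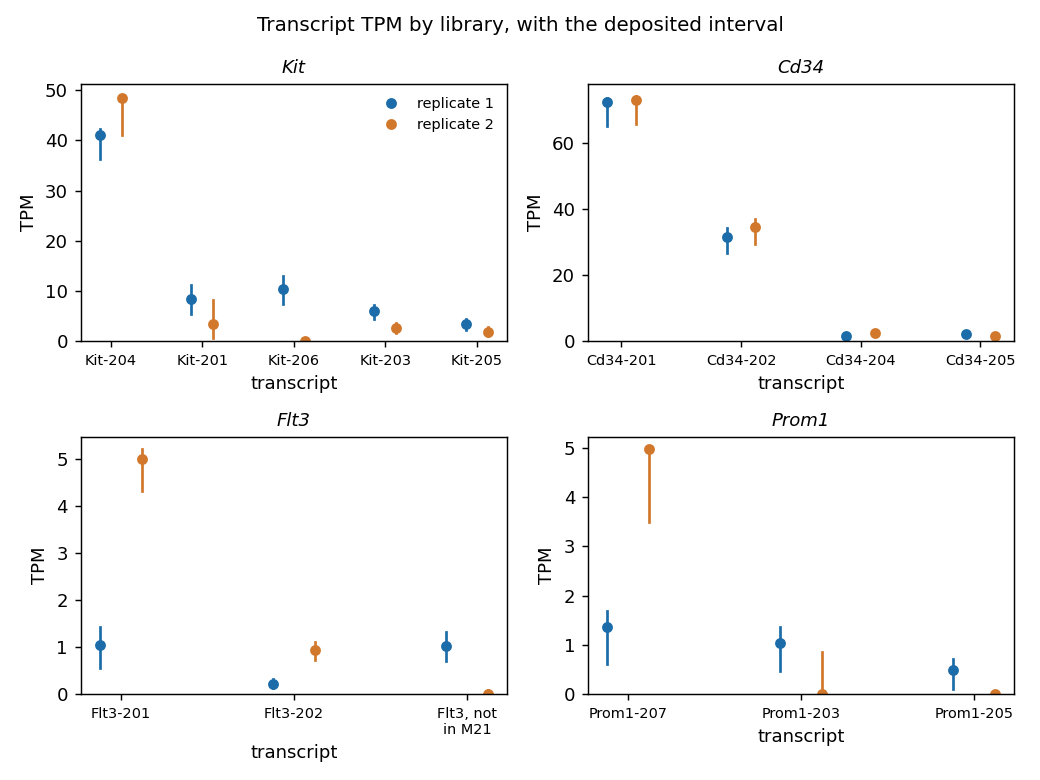
TPM of each transcript with a value above 0, by library, for Kit, Cd34, Flt3 and Prom1. Points are the deposited TPM and lines the deposited interval, which belongs to a posterior estimate and need not be centred on the point; Kit-204 and Cd34-201 lead their genes in both libraries, and Kit-206 has counts in replicate 1 alone.

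The difference in Kit TPM between the libraries lay on short transcripts that keep an intron. Kit-206, 354 bases long with 179 of them outside the exons of Kit-204, had 60.1 counts and 10.5 TPM in replicate 1 and 0 counts in replicate 2. Its deposited intervals did not overlap, with 7.48 TPM as the lower bound in replicate 1 and 0.666 TPM as the upper bound in replicate 2. Kit-203 was at 5.94 and 2.53 TPM, and Kit-205 at 3.32 and 1.87 TPM. Together the transcripts annotated as retained intron held 28.5% of Kit TPM in replicate 1 and 7.83% in replicate 2, but only 2.79% and 0.951% of its counts. Across the 4374 protein-coding genes of 1 TPM or more that have such a transcript, the median share of counts was 6.31% and 7.20%. So Kit had a smaller share of counts on them than the median gene in both libraries, and their shortness gave those counts a large weight in TPM.

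**Figure D3:**
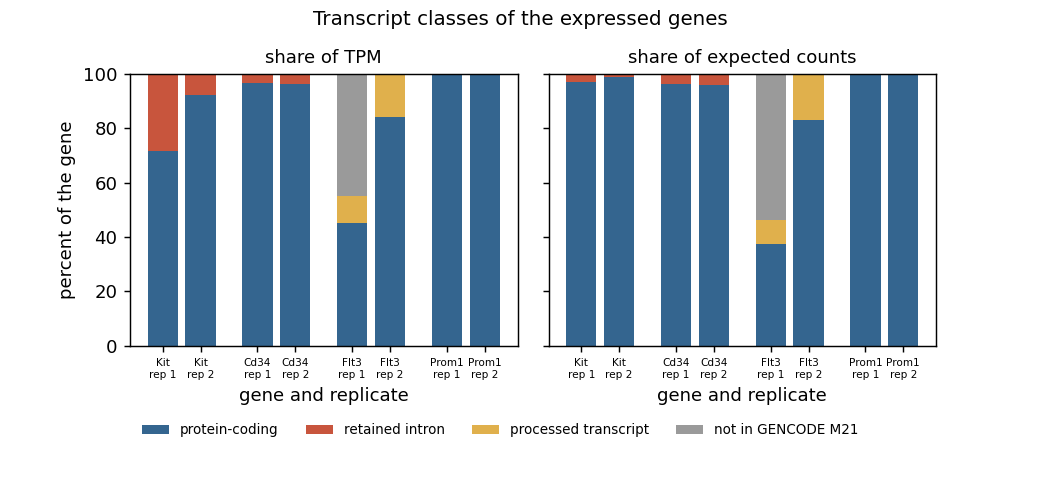
Share of each gene on classes of transcript, in percent of its TPM (left) and of its expected counts (right), with 1 bar per gene and library. In replicate 1 the retained-intron share of Kit is 28.5% of TPM and 2.79% of counts, and the grey share of Flt3 is absent from replicate 2.

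Cd34 was divided in nearly the same way in both libraries. Cd34-201, the full-length form, was at 72.4 TPM in replicate 1 and at 72.8 TPM in replicate 2. Cd34-202, the form with the shortened tail, was at 31.5 and 34.5 TPM. The short form held 30.3% and 32.1% of the TPM on the pair, a mean of 31.2 ± 1.31% (SD, n = 2). The deposited intervals of the 2 forms did not overlap in either library, reaching down to 65.1 TPM for Cd34-201 and up to 36.8 TPM for Cd34-202. Transcripts that keep an intron held 3.30% and 3.58% of Cd34 TPM, and the transcript annotated for nonsense-mediated decay, Cd34-203, had 0 counts.

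Flt3 and Prom1, with far fewer counts, were divided differently in the 2 libraries. Flt3-201, the transcript of the full receptor, was at 1.05 TPM in replicate 1 and at 5.00 TPM in replicate 2, and its deposited intervals lay apart, ending at 1.44 TPM and starting at 4.33 TPM. A Flt3 transcript of 5241 bases that is not in the annotation used here for names (ENSMUST00000176456.3) was at 1.04 TPM, from 154 counts, in replicate 1 and had 0 counts in replicate 2. Flt3-202 shares 9 of its 10 exons with Flt3-201, which has 24 exons, and ends in an exon of 2519 bases. It was at 0.23 and 0.95 TPM. On the full-receptor transcript alone, the libraries differed by 1.55 in log2(TPM + 1), more than on the gene. That value leaves out the transcript of 5241 bases, whose class is not known and which held 154 of the 287 counts in replicate 1. It thus depends on how counts were placed between the transcripts. By expected counts the leading Flt3 transcript in replicate 1 was the one of 5241 bases, with 53.8% of the gene.

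All Prom1 counts in replicate 2 were placed on Prom1-207, at 4.97 TPM. In replicate 1 they were divided over Prom1-207 at 1.36 TPM, Prom1-203 at 1.05 TPM and Prom1-205 at 0.49 TPM. The deposited intervals of Prom1-207 did not overlap, ending at 1.69 TPM in replicate 1 and starting at 3.49 TPM in replicate 2. Those of Prom1-203 did overlap, since its upper bound in replicate 2 was 0.866 TPM and its lower bound in replicate 1 was 0.480 TPM. These intervals thus show no difference in the transcript with coding exons 24 and 25 beyond their width.

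The leading transcript by TPM was the same in both libraries for 4 of 4 members with several transcripts. This was the case for 67.9% of protein-coding genes with several transcripts and 1 TPM or more on average. By expected counts it held for 3 of 4, Flt3 being the exception. In replicate 1 the lead of Flt3-201 by TPM was narrow, at 45.3% against 44.9% for the transcript of 5241 bases. There the deposited intervals of the 2 highest transcripts overlapped for Flt3 and for Prom1. The share of the leading transcript moved by more than 20 points, a limit set after the values were seen, for Kit (26.8 points), Flt3 (38.7 points) and Prom1 (53.1 points), and by 1.97 points for Cd34. Moves of that size were seen in 37.6% of all such genes, in 52.8% of those at 1 to 10 TPM and in 28.5% of those at 10 TPM or more.

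Genes that act with the 6 members were taken as lists, chosen with earlier results of these data known and described by counts and medians. Of the ligands and counter-receptors, Flt3l had no matching row and 2 of 5 matched genes reached 1 TPM in both libraries. Kitl, which encodes stem cell factor, had 14 counts (0.09 TPM) in replicate 1 and 0 in replicate 2, and Epo and Il7 had 0 counts in both. Tslp, a cytokine that signals through the interleukin 7 receptor chain and Crlf2, was at 5.28 and 5.08 TPM. Over all protein-coding genes 9782 of 21474 reached 1 TPM in both libraries, with a median of 0.55 TPM on the mean of the libraries.

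Other receptor tyrosine kinases of the class of Kit and of the vascular families reached 1 TPM in both libraries in 3 of 8 cases, with a list median of 0.627 TPM. Csf1r, the receptor for macrophage colony-stimulating factor and the closest relative of Kit and Flt3 in this lineage, was at 33.7 and 36.9 TPM. Flt3 lay below Csf1r by 14.6 times in replicate 1 and 6.21 times in replicate 2. Pdgfrb was at 2.47 and 3.90 TPM, Tie1 at 3.46 and 1.87 TPM and Flt1 at 1.63 and 0.36 TPM. Pdgfra and Kdr had 0 counts in both libraries. Kit was the highest of these kinases in both libraries.

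Among the cytokine receptor chains 11 of 19 reached 1 TPM in both libraries, with a median of 5.26 TPM. The highest were the myeloid chains Csf3r at 53.0 and 68.0 TPM, Csf2rb at 37.3 and 36.4 TPM and Csf2ra at 30.04 and 33.1 TPM. Il6st followed at 22.5 and 33.6 TPM. Il2rg and Crlf2 were picked with their values known, being partners of Il7r. Il2rg, the common gamma chain that pairs with it for interleukin 7, was at 15.8 and 10.4 TPM, and Crlf2, which pairs with it for TSLP, was at 2.25 and 8.27 TPM. In log2(TPM + 1), 3 chains of this list were more than 2-fold higher in replicate 2. These were Crlf2, Il3ra and Il21r, named here after their values were seen. Ghr, named likewise, had 0 and 51 counts (0 and 0.48 TPM) and was under 2-fold on that scale. Among all protein-coding genes of 1 TPM or more on average, 4.44% were that much higher in replicate 2, and 8.20% of those at 1 to 10 TPM.

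Of the sialomucins and prominin relatives 5 of 8 reached 1 TPM in both libraries, with a median of 65.0 TPM. Cd24a was at 137.7 and 134.7 TPM, Cd164 at 67.2 and 80.8 TPM, Selplg, the ligand for P-selectin, at 69.9 and 74.7 TPM, and Spn, or CD43, at 75.7 and 57.5 TPM. The nearest relatives of the members by family were not detected. Podxl and Podxl2 of the CD34 family and Prom2 of the prominin family had 0 counts in both libraries, so Cd34 and Prom1 were the only detected genes of their families.

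Signalling genes downstream of these receptors mostly reached 1 TPM in both libraries, in 28 of 33 cases, with a median of 14.5 TPM. Ptpn6 (SHP-1), a phosphatase that restrains KIT and EPOR, was at 98.8 and 80.8 TPM. Grb2, the adaptor that leads to RAS, was at 53.5 and 50.8 TPM, Sla, a SRC-like adaptor, at 32.9 and 41.04 TPM, and Pik3cd, a catalytic subunit of PI3 kinase, at 38.4 and 34.8 TPM. Socs2 and Sla2 had 0 counts in both libraries. Of this list 1 gene, Cish, was more than 2-fold higher and 2 genes, Pik3ca and Dok2, were more than 2-fold lower in replicate 2 in TPM, named here after their values were seen. Over protein-coding genes of 1 TPM or more on average, 4.44% were that much higher and 3.08% that much lower in replicate 2. The 3 calls among 33 genes lie near those shares. Pik3ca was past 2-fold in TPM (19.6 and 8.58) but not in CPM, at 46.1 and 40.3 from 1869 and 1439 counts. Dok2 was at 3.802 and 0.925 CPM, from 154 and 33 counts, and stayed past 2-fold.

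Transcription factors known to act at the 6 genes reached 1 TPM in both libraries in 16 of 18 cases, with a median of 29.7 TPM. Myb was at 273.9 and 269.6 TPM, Lmo2 at 164.0 and 160.5 TPM, Spi1 (PU.1) at 99.9 and 117.6 TPM and Runx1 at 65.0 and 96.1 TPM. None of the 18 was more than 2-fold apart on the log2(TPM + 1) scale. Among protein-coding genes of 1 TPM or more on average, 4.44% were that far higher and 3.08% that far lower in replicate 2. At 10 TPM or more these shares were 1.85% and 1.28%. With 18 genes, none past 2-fold lies near those shares.

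Markers of the labelled cell type and of other cells that carry the 6 genes were read beside them. All 13 GMP markers reached 1 TPM in both libraries, with a median of 140 TPM, led by Mpo, Elane, Ly6c2 and Prtn3, each above 1000 TPM in both libraries. Of the stem and multipotent progenitor markers 5 of 12 reached 1 TPM in both libraries, near the 45.6% of all protein-coding genes. The list had a summed level of 117 and 130 TPM. Most of that sum was Cd48 (80.0 and 86.2 TPM) and Cd27 (24.2 and 29.8 TPM), which are not limited to stem cells. Hlf (4.85 and 5.29 TPM) and Mllt3 (2.85 and 4.09 TPM) followed. Ctnnal1, named after its values were seen, also reached 1 TPM in both libraries, at 2.81 and 2.92 TPM. Ly6a and Hoxb5 had 0 counts and Slamf1 had 1 count in each library. Slamf1, and below Klf1 and Cdh5, were picked with their values known, being defining markers.

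For Epor, 3 of 12 erythroid markers reached 1 TPM in both libraries, and the sum was 37.2 and 38.1 TPM. Tfrc, used by all dividing cells for iron uptake, made up most of it at 31.3 and 32.7 TPM. It was followed by Car1 at 2.61 and 2.06 TPM, Gata1 at 2.11 and 1.07 TPM and Hba-a1 at 0 and 1.34 TPM. Alas2 and Slc4a1 had 0 counts and Klf1 had 10 and 18 counts.

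For Il7r and Flt3, 2 of 14 lymphoid progenitor markers reached 1 TPM in both libraries, with sums of 30.6 and 28.6 TPM. These were Satb1 at 20.6 and 16.2 TPM and Notch1 at 9.19 and 10.9 TPM, which other progenitors also express. Rag2 was at 0.13 and 1.39 TPM and Tcf7 at 0.65 and 0 TPM. Rag1, Ebf1, Pax5, Cd79a and 3 more genes had 0 counts in both libraries. Flt3 and Rag2 were both higher in replicate 2. The summed level of the list was not, but most of that sum was Satb1 and Notch1. The part of lymphoid cells in the Flt3 difference was not tested.

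For Kit, which mast cells also carry, 5 of 10 mast cell and basophil markers reached 1 TPM in both libraries. That share was near the 45.6% of all protein-coding genes. The sum of the list was 179 TPM in replicate 1 and 135 TPM in replicate 2. It was led by Mcpt8 at 59.6 and 38.5 TPM, Hdc at 37.9 and 39.7 TPM, Cpa3 at 41.5 and 35.9 TPM and Ms4a2 at 21.1 and 10.3 TPM. The gene of this list furthest apart, and the only one past 2-fold in log2(TPM + 1), was Fcer1a, a chain of the IgE receptor. It had 193 counts (7.91 TPM) in replicate 1 and 1 count (0.06 TPM) in replicate 2. Over protein-coding genes of 1 TPM or more on average, 3.08% were more than 2-fold lower in replicate 2. Il1rl1, the receptor for interleukin 33, had 169 and 30 counts. Fcer1a and Il1rl1 were named with their values known. In log2(CPM + 1), Ms4a2 (-1.07) and Il1rl1 (-1.49) were also more than 2-fold lower in replicate 2. Cma1, Tpsb2 and Mcpt4, which define mature mast cells, had 0 counts in both libraries. Kit TPM and this sum were both higher in replicate 1, whereas Kit CPM was not, and the part of basophils or mast cells in the level of Kit was not tested.

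For Cd34, which endothelial cells also carry, 3 of 10 endothelial markers reached 1 TPM in both libraries, with sums of 52.6 and 66.0 TPM. Pecam1, also a gene of myeloid progenitors, was at 33.3 and 36.1 TPM, Egfl7 at 10.9 and 15.3 TPM, Eng at 5.29 and 13.9 TPM and Vwf at 2.44 and 0.21 TPM. Esam and Kdr had 0 counts in both libraries and Cdh5, the cadherin of endothelial junctions, had 0 and 20 counts. For Prom1, which many epithelia carry, 1 of 8 epithelial markers reached 1 TPM in both libraries, Krt18 at 9.94 and 5.65 TPM. It was followed by Cdh1 at 2.21 and 0.52 TPM and Krt8 at 0 and 0.16 TPM, while Epcam, Krt19, Elf3, Cldn4 and Cldn7 had 0 counts. The epithelial sum was 12.2 TPM in replicate 1 and 6.33 TPM in replicate 2, whereas Prom1 was higher in replicate 2. The part of endothelial cells in the level of Cd34, and of epithelial cells in that of Prom1, was not tested.

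**Figure D4:**
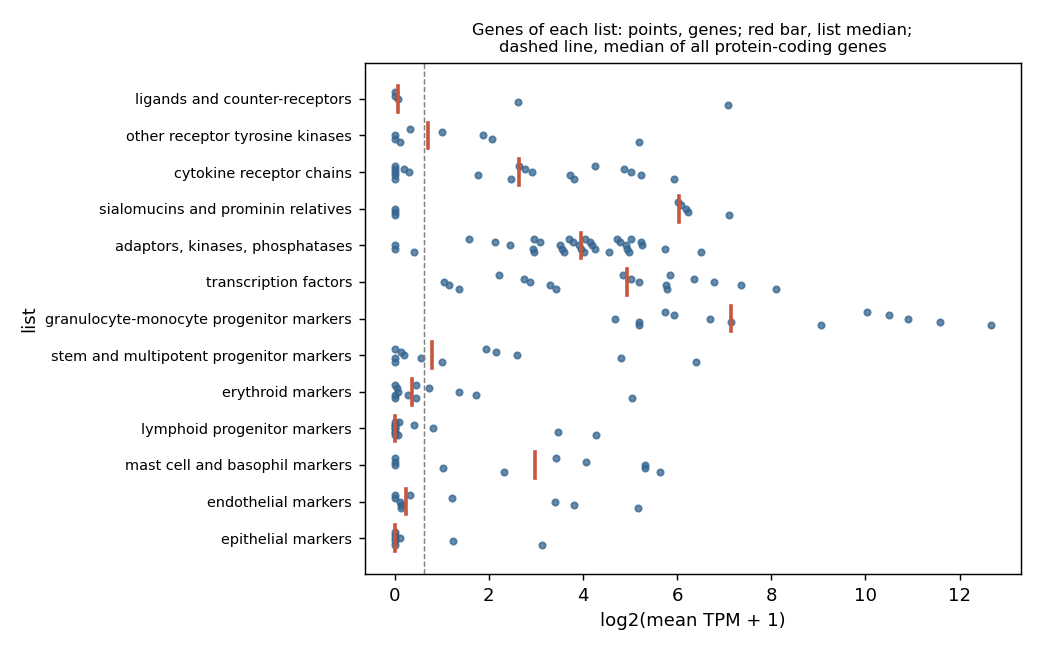
Genes of each list by log2(mean TPM + 1) over the 2 libraries, with 1 point per gene, a red bar for the list median and a dashed line for the median of all protein-coding genes (0.55 TPM). The GMP markers lie highest, and the lymphoid and epithelial medians lie at or near 0.

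The protein-coding genes nearest to each expressed member were found by the distance in log2(TPM + 1) over the 2 libraries. With only 2 values per gene this is a likeness of level and says nothing of shared control. Ppp2cb and Arcn1 were nearest to Kit, at distances of 0.0227 and 0.0275. Ly86 and Rnps1 were nearest to Cd34, at 0.0179 and 0.0200. For Flt3 they were Pigl and Insig1, at 0.0390 and 0.0459, and for Prom1 Luzp1 and Fbxl4, at 0.0225 and 0.0266.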

How the data were processed

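Total RNA-seq of 2 libraries of 100 cells was read from 1 gene and 1 transcript table per library. Per the deposited notes of each library, reads were mapped against transcripts of annotation M4 (mm10). Which aligner and quantification tool were used, and whether counting used strand, is not given in the sources used. The authors deposited expected counts, which are estimated reads. The deposited TPM and FPKM values are scaled by effective length, with spike-ins and mitochondrial genes in the TPM total. The deposited percent values give each transcript's share of its gene's TPM. Names and spans came from GENCODE M21 by Ensembl identifier without version. It held 23 of the 24 member transcripts, 16 of them at the same length, and transcript sequences are from it. The 20 bases before Prom1-207 are from RefSeq (GRCm38.p6).

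CPM is counts over the library total. Ratios between libraries are log2(TPM + 1), called past 2-fold. This pseudocount understates the ratios of low genes. Counts were rounded for edgeR 4.0.16 (10 counts in at least 1 library) and DESeq2 1.42.0 in R 4.3.3. Other steps used Python 3.11.15, scipy 1.17.1 and pandas 2.3.3. The dispersion fit was tested on simulated data. Members and lists (13 lists, 163 genes, 162 matched) were chosen with earlier results of these data known. Named list genes are the 4 highest of each list, all ligands and up to 4 genes of 0 counts. Some genes that this takes are not reported here. The 2 nearest genes by level, and for transcripts the 2 highest of each member, were named too, with others marked as named after their values were seen. Protein-coding sums, CPM order, CPM without a pseudocount and posterior shares were alternatives chosen after seeing the data. Exact intervals cover counting error only.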

Additional observations from a re-analysis of the deposited data

How the results depend on the processing

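Members at 1 TPM or more numbered 4 in both libraries and 4 without either replicate. At a threshold of 5 TPM they numbered 2, since Flt3 and Prom1 lie below it in at least 1 library. In log2(CPM + 1) with TMM factors, and with DESeq2 size factors, 0 members were more than 2-fold apart, against 1 (Flt3) on the deposited TPM and in the other settings tried. Without the pseudocount, alternatives added after seeing the data, Flt3 was past 2-fold with both (2.07 and 2.06), so the pseudocount ends that call. TPM rescaled without Gm42418, Gm26917, Mir6236, Lars2, mitochondrial genes and spike-ins was higher by construction, at 117 for Kit, 204.4 for Cd34, 7.66 for Flt3, 7.32 for Prom1 and 0.260 for Epor. The TPM of protein-coding transcripts alone was 50.7 for Kit and 105.6 for Cd34. Of 59 alternative values of the log2 ratios between libraries, 43 moved by less than the half-width of the counting interval and 16 moved by more. Some of the 43 could not move. A filter of 10 counts in both libraries leaves a ratio as it was, and all Epor and Prom1 TPM lay on protein-coding transcripts. The counting interval of Epor was so wide (CPM ratio 0.524 to 7.06) that none of its values counted as moved. The only called ratio, that of Flt3, kept its sign. Kit, not called, changed sign from -0.30 in TPM to 0.06 in CPM. Cd34, also not called, went from 0.052 in TPM to -0.0049 with TMM factors and -0.012 with DESeq2 factors. Genes of the lists at 1 TPM or more in both libraries numbered 92 of 162, and 79 to 98 at the other thresholds. No paired analysis was possible because there is 1 group. Low counts limit Epor and Il7r.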

Other observations

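Genes that overlap the members on the opposite strand were read because whether counting used strand is not given. Gm16897, which overlaps the end of Cd34 by 5521 bases, and Gm16401, which overlaps the start of Prom1 by 1591 bases, had 0 counts in both libraries. Gm26597, which overlaps the start of Flt3 by 936 bases, had 0 counts in replicate 1 and 11 in replicate 2, or 0.32 TPM. On the same strand, Gm42716 overlaps Prom1 and had no matching row. Kit, Epor and Il7r overlap no other gene in GENCODE M21. Without strand, reads of such pairs cannot be told apart, and the 11 counts compare with 553 for Flt3 in the same library.

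Cish, a feedback inhibitor induced by STAT5 downstream of the EPO and interleukin receptors, was the gene of the signalling list furthest apart between the libraries, at 0.11 TPM from 15 counts in replicate 1 and 8.75 TPM from 108 counts in replicate 2. In CPM it was at 0.370 and 3.03. It was chosen after its values were seen. Stat5a was at 16.1 and 17.6 TPM and Stat5b at 17.0 and 19.5 TPM.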
